A study of Rattus norvegicus with 18 samples.

Results

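The interferon response genes described here are Usp18, Irf7, Isg15, Ifi27, Ifit3, Mx1, Ifitm3 and Bst2, 8 of the 17337 genes in the deposited transcript tables. Each was found by its gene name, and the TPM of its transcripts was summed. TPM is a length-corrected share of all transcripts in a library. The levels below are TPM divided by a scaling factor per library, called scaled TPM. The libraries come from rat oligodendrocyte progenitor cells (OPCs), the dividing glia that give rise to myelin-forming oligodendrocytes, and per the labels the cells were separated with magnetic beads. There were 6 groups of 3 libraries: aged OPCs grown on soft hydrogel, aged OPCs grown on stiff hydrogel, aged primary sorted OPCs, neonate OPCs on soft hydrogel, neonate OPCs on stiff hydrogel and neonate primary sorted OPCs. The hydrogels were coated with laminin, and the labels name FGF and PDGF as the growth factors of every sample. The labels used here give no strain, sex, exact age or stiffness value, and the age of the primary sorted libraries is given only by a letter in the title. The labels do not tell whether libraries of the same group are from different animals. The p-values therefore weigh differences against the spread among libraries alone, and this spread may be technical.

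Interferons are secreted proteins, and those of type I and type III are released by cells on sensing foreign or misplaced nucleic acids. Type I and type III interferons bind their receptors and act through the kinases Jak1 and Tyk2 and a complex that holds Irf9, which binds the interferon-stimulated response element in front of target genes. Interferon gamma acts mainly through the gamma-activated site. In the brain, microglia are among the cells known to respond strongly to type I interferon. In mouse, Usp18 in microglia is known to restrain that response.

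Promoter sequence was available for 6 of the 8 genes, in the RefSeq table of build GRCr8, as 250 bases before to 50 bases after the annotated start. The following stretches are shown because they hold the response element core in the 5 genes where it was found. Capitals mark the core, which is GAAA, any 2 bases and GAAA, or its reverse complement, and each stretch is written 5′ to 3′ on the strand of its gene.
Ifi27 chr6:128355123-128355257, plus strand: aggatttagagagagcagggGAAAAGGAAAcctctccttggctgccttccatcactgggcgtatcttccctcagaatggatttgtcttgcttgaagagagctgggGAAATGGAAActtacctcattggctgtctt
Ifit3 chr1:241527262-241527311, plus strand: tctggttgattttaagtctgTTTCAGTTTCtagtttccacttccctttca
Ifitm3 chr1:205541773-205541822, minus strand: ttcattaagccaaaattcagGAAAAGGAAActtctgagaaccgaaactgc
Bst2 chr16:18255063-18255118, minus strand: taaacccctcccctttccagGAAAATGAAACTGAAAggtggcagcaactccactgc
Irf7 chr1:205800063-205800112, minus strand: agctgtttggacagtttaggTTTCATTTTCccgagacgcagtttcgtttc

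The core was searched on both strands. It lay in 5 of the 6 promoters with a sequence, against 3.92% of the 33469 promoters in the table and 45.5% of the 99 promoters of other interferon pathway genes. Ifi27 had 2 copies, at bases -169 to -160 and -84 to -75, with the annotated start as base 0. Bst2 also had 2 copies, at -131 to -122 and -125 to -116, which overlap each other. In Ifitm3 the core lay at -44 to -35. Irf7 and Ifit3 carried it on the opposite strand, at -69 to -60 in Irf7 and at -44 to -35 in Ifit3. Mx1 had no match in this window. The gamma-activated site core, which is TTC, any 3 bases and GAA, was found in 2 of the 6 promoters, at -137 to -129 in Bst2, where it overlaps the first response element core, and at -33 to -25 in Ifitm3, against 8.87% of all promoters and 21.2% of the promoters of other interferon pathway genes. A match is a description of letters and not a site of binding.

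**Figure D1:**
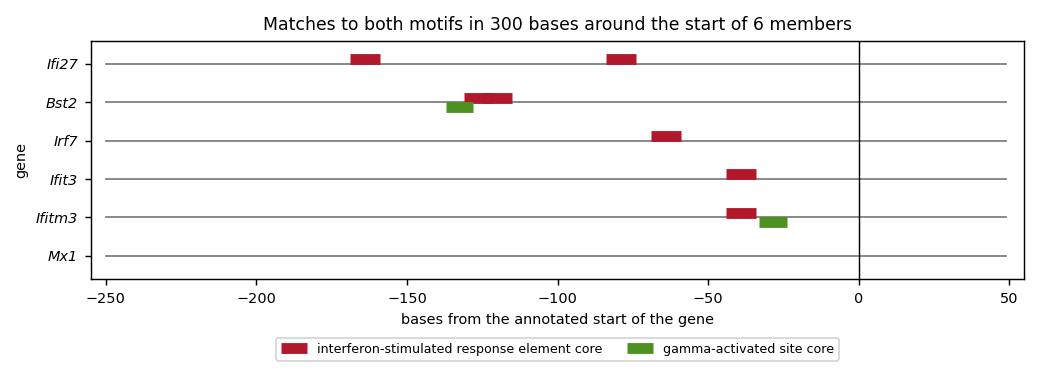
Matches to the interferon-stimulated response element core (red) and the gamma-activated site core (green) in the 300 bases around the annotated start of 6 genes, with distance in bases on the x axis and 1 line per gene. The response element core lies within 169 bases of the start in 5 of the 6 genes, and Mx1 has neither motif.

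Depth was low in all 18 libraries. Annotated exons received 33939 to 141883 read pairs per library, if a pair covers 300 bases. Of the values of the 15144 genes tested, 41.4% were 0, and each of 7 of the 15 housekeeping genes checked was at 0 in some library. A level of 0 is therefore given as listed at 0. Microglia markers were high in the aged libraries, most of all in the primary sorted ones, where the 20 markers summed to 3162 to 5399 scaled TPM, against 167.1 to 293.8 in neonate primary sorted cells. The sum of 9 OPC markers was 86.2 to 185.1 scaled TPM in aged primary sorted cells and 799.1 to 885.5 in neonate primary sorted cells. The aged primary sorted libraries thus went against their OPC label. The microglia sum, which holds more genes, was also above the OPC sum in every aged gel library. In aged cells the 2 sums were 868.5 to 1400 and 306.9 to 655.5 scaled TPM on soft gel, and 446.5 to 1100 and 75.1 to 437.3 on stiff gel. They were nearly equal in aged stiff library 3 (446.5 and 437.3). In neonate cells the OPC sum was 1290 to 1590 on soft gel and 912.3 to 1681 on stiff gel. The 3 aged libraries numbered 1 stood apart: 54.7% to 77.2% of 1196 olfactory receptor genes, which neural cells rarely use, were above 0 there, against 0.251% to 39.1% in the other 15 libraries. Of those 15, the highest were aged soft 2 (39.1%), aged soft 3 (30.8%), neonate soft 2 (18.8%) and aged stiff 2 (16.1%). Leaving out the libraries numbered 1 therefore does not remove this feature from the aged soft group. Called results of the 8 genes and counts of the lists are also given without those 3 libraries.

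Each level rested on few reads. The highest support in any library was 15.6 read pairs for Ifi27, 8.06 for Usp18, 7.30 for Irf7, 5.07 for Mx1, 4.13 for Ifitm3, 3.92 for Isg15, 3.91 for Ifit3 and 2.74 for Bst2. One read pair on Isg15 was worth 9.53 to 28.4 TPM, and on the longer Mx1 2.79 to 4.74 TPM. All 8 genes passed the filter for testing, which asked for 3 or more libraries with a TPM of 1 or more. Ifitm3 passed it through aged libraries alone. Usp18, Mx1 and Bst2 had 1 neonate library each at a TPM of 1 or more, so they too passed it only through aged libraries. The presence of these 4 genes in the test set already depends on the aged libraries, and counts and medians over the 8 genes are descriptions. Only the aged primary library 1 had all 8 genes above 0. The other aged libraries had 3 to 6, and the neonate libraries 2 to 5.

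**Figure D2:**
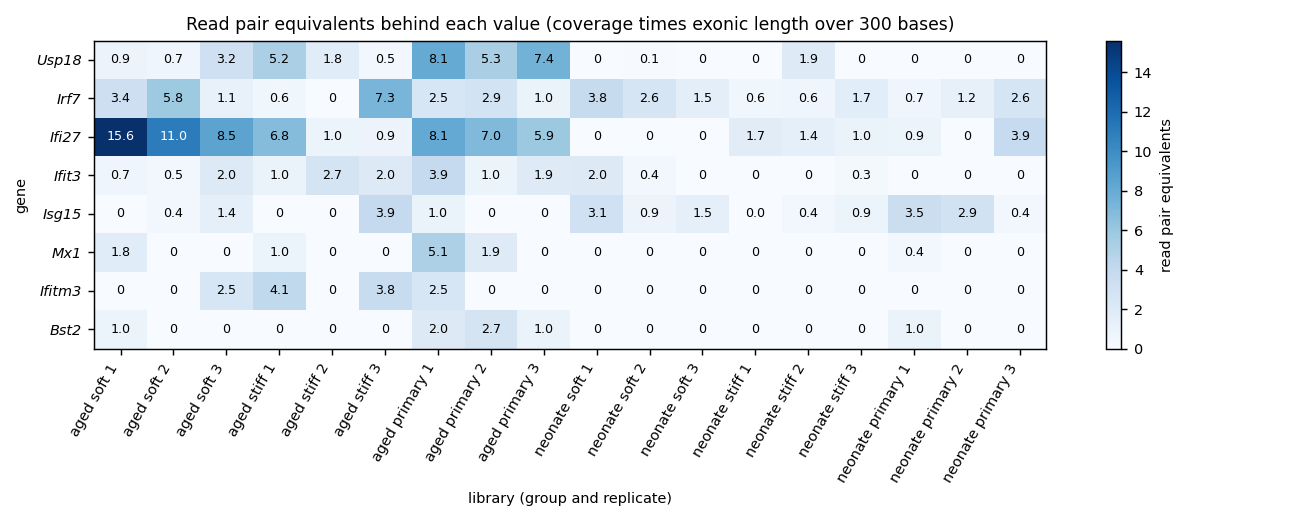
Read pair equivalents behind each level, with the 8 genes in rows and the 18 libraries in columns, aged groups left of neonate groups. Ifi27 has 15.6 pairs in aged soft library 1 and none in the neonate soft libraries, and most other cells hold under 5 pairs.

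Among the regulators Usp18 was the one that passed the test between the ages. It encodes the protease that removes the ubiquitin-like Isg15 protein from its targets and that dampens signalling of the type I interferon receptor. The gene lies on rn6 chromosome 4, bases 153806080 to 153834374, plus strand. In primary sorted cells its level was 48.8, 32.4 and 47.1 scaled TPM in aged libraries, and it was listed at 0 in all 3 neonate libraries. The groups did not overlap. The difference was 5.43 ± 1.14 (SE) on the log2(scaled TPM + 1) scale, and Usp18 rose by limma with an adjusted p (Benjamini-Hochberg) of 0.00725. Since the neonate group is listed at 0, this value depends on the added 1 and gives no fold.

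On soft gel Usp18 was at 7.29, 7.19 and 8.92 scaled TPM in aged libraries and at 0, 0.537 and 0 in neonate libraries. Again no aged library was as low as a neonate one, but the difference of 2.93 ± 1.14 did not pass (limma adjusted p = 0.202). On stiff gel the aged libraries had 49.5, 23.5 and 3.52 scaled TPM, and the neonate libraries 0, 18.7 and 0. There the groups overlapped, through aged library 3 and neonate library 2. The difference on stiff gel was 2.72 ± 1.14 (limma adjusted p = 0.284). Over all 18 libraries Usp18 was above 0 in 9 of 9 aged and in 2 of 9 neonate libraries, with 33.1 read pairs in the aged libraries and 2.04 in the neonate ones.

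Irf7, the transcription factor that amplifies type I interferon production, lies on rn6 chromosome 1, bases 214249388 to 214252455, minus strand. It was above 0 in 8 of 9 aged and all 9 neonate libraries. Its levels in aged cells were 23.0, 48.1 and 2.58 scaled TPM on soft gel, 4.67, 0 and 44.7 on stiff gel and 12.4, 14.6 and 5.09 in primary sorted cells. Neonate cells had 12.9, 11.9 and 10.5 scaled TPM on soft gel, 3.18, 4.80 and 9.47 on stiff gel and 2.01, 6.82 and 11.6 in primary sorted cells. Every aged group overlapped its neonate counterpart. The age differences were 0.35 on soft gel, 0.01 on stiff gel and 0.70 in primary sorted cells, each with an SE of 1.13 and none called by limma (adjusted p = 0.900, 1 and 0.802). An SE of this size leaves differences of several fold in either direction undetectable at this depth.

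Isg15 was the only 1 of the 8 with a negative difference in each of the 3 age comparisons, and none of them passed. It encodes the ubiquitin-like protein that is attached to other proteins after interferon signalling, and lies on rn6 chromosome 5, bases 173624902 to 173626189, minus strand. It was above 0 in 4 of 9 aged and all 9 neonate libraries, with 6.68 read pairs in aged and 13.7 in neonate libraries. In primary sorted cells its level was 14.4, 0 and 0 scaled TPM in aged libraries and 30.0, 48.0 and 5.68 in neonate libraries. The groups overlapped because aged library 1 exceeded neonate library 3. The difference was -3.12 ± 1.44 on the log2 scale, with an unadjusted p of 0.0395 and a limma adjusted p of 0.352.

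On soft gel Isg15 was at 0, 10.5 and 9.05 scaled TPM in aged libraries and at 31.4, 11.9 and 29.4 in neonate libraries. Each aged library was below each neonate one, and the difference was -2.26 ± 1.44 (limma adjusted p = 0.434). On stiff gel the levels were 0, 0 and 71.0 scaled TPM in aged libraries and 0.536, 9.55 and 15.8 in neonate libraries. Aged library 3 was the highest of the 6 and the other aged libraries were listed at 0. The difference on stiff gel was -0.64 ± 1.44 (limma adjusted p = 0.886), and its sign turned positive under 5 of 28 settings.

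Among the genes that act on the cell or the virus, Ifi27 had the highest level and the most reads. It encodes a small hydrophobic protein that is induced by interferon alpha. The gene lies on rn6 chromosome 6, bases 127327959 to 127334431, plus strand. On soft gel its level was 261.4, 220.8 and 47.4 scaled TPM in aged cells. It was listed at 0 in all 3 libraries of neonate cells. These libraries held 15.6, 11.0 and 8.52 read pairs on Ifi27 in the aged group and none in the neonate group. The groups did not overlap. The difference was 7.14 ± 1.01 on the log2 scale, and Ifi27 rose with a limma adjusted p of 0.000197.

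In primary sorted cells Ifi27 was at 98.6, 85.5 and 75.0 scaled TPM in aged libraries and at 6.82, 0 and 42.0 in neonate libraries. All aged libraries were above all neonate ones, although neonate library 3 came within a factor of 2. Ifi27 rose by 3.64 ± 1.01 with a limma adjusted p of 0.0486, close to the threshold of 0.05. On stiff gel the aged libraries had 129.0, 25.2 and 13.7 scaled TPM and the neonate libraries 22.9, 26.6 and 13.6. The ages overlapped there, and the difference was 0.79 ± 1.01 (limma adjusted p = 0.730).

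Ifit3, which binds Ifit1 in the complexes that recognise foreign RNA, lies on rn6 chromosome 1, bases 252906234 to 252911375, plus strand. In primary sorted cells it was at 18.8, 4.72 and 9.54 scaled TPM in aged libraries and listed at 0 in all neonate libraries. On stiff gel it was at 7.34, 27.9 and 11.6 scaled TPM in aged libraries and at 0, 0 and 1.81 in neonate libraries. In both settings the ages did not overlap. The differences were 3.41 ± 1.09 in primary sorted cells and 3.36 ± 1.09 on stiff gel, and limma called neither (adjusted p = 0.105 and 0.122). By voom Ifit3 was called in primary sorted cells (2.51, adjusted p = 0.0204) and not on stiff gel. On soft gel the levels were 4.48, 3.79 and 4.31 scaled TPM in aged cells and 6.55, 1.79 and 0 in neonate cells, so the groups overlapped.

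Bst2 encodes tetherin, which holds budding virus particles at the cell surface. It lies on rn6 chromosome 16, bases 19938784 to 19942353, minus strand. Its level was 26.0, 35.7 and 13.2 scaled TPM in aged primary sorted cells and 7.46, 0 and 0 in neonate primary sorted cells. The ages did not overlap, but the difference of 3.57 ± 1.17 did not pass (limma adjusted p = 0.117). On the gels Bst2 was above 0 in 1 library, aged soft library 1, at 17.2 scaled TPM from 0.968 read pairs.

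Ifitm3 encodes a membrane protein of endosomes that hinders virus entry. It lies on rn6 chromosome 1, bases 213810712 to 213811821, minus strand. It was listed at 0 in all 9 neonate libraries. Among aged libraries it was at 0, 0 and 18.3 scaled TPM on soft gel, 103.9, 0 and 74.5 on stiff gel and 40.0, 0 and 0 in primary sorted cells. Each aged group held at least 1 library listed at 0, so each overlapped its neonate counterpart. The age difference was 4.32 ± 1.55 on stiff gel (limma adjusted p = 0.189), 1.42 ± 1.55 on soft gel (0.659) and 1.79 ± 1.55 in primary sorted cells (0.696).

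Mx1, a dynamin-like GTPase that blocks virus replication, lies on rn6 chromosome 11, bases 37891150 to 37916690, minus strand. It was above 0 in 4 of 9 aged libraries and in 1 of 9 neonate libraries. The aged levels were 7.36, 0 and 0 scaled TPM on soft gel, 4.39, 0 and 0 on stiff gel and 14.9, 5.65 and 0 in primary sorted cells. The single neonate value was 0.739 scaled TPM in primary library 1. Of the 4 aged libraries with Mx1 reads, 3 were the libraries numbered 1, which stand apart. The age differences ranged over 0.81, 1.02 and 1.97 on stiff gel, soft gel and primary sorted cells, each with an SE of 1.04 and none called by limma (adjusted p = 0.734, 0.639 and 0.465). Mx1, Ifit3, Ifitm3 and Ifi27 belong to families with similar copies, and how reads shared between copies were assigned is not given in the sources used here, so their levels are uncertain to that extent.

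**Figure D3:**
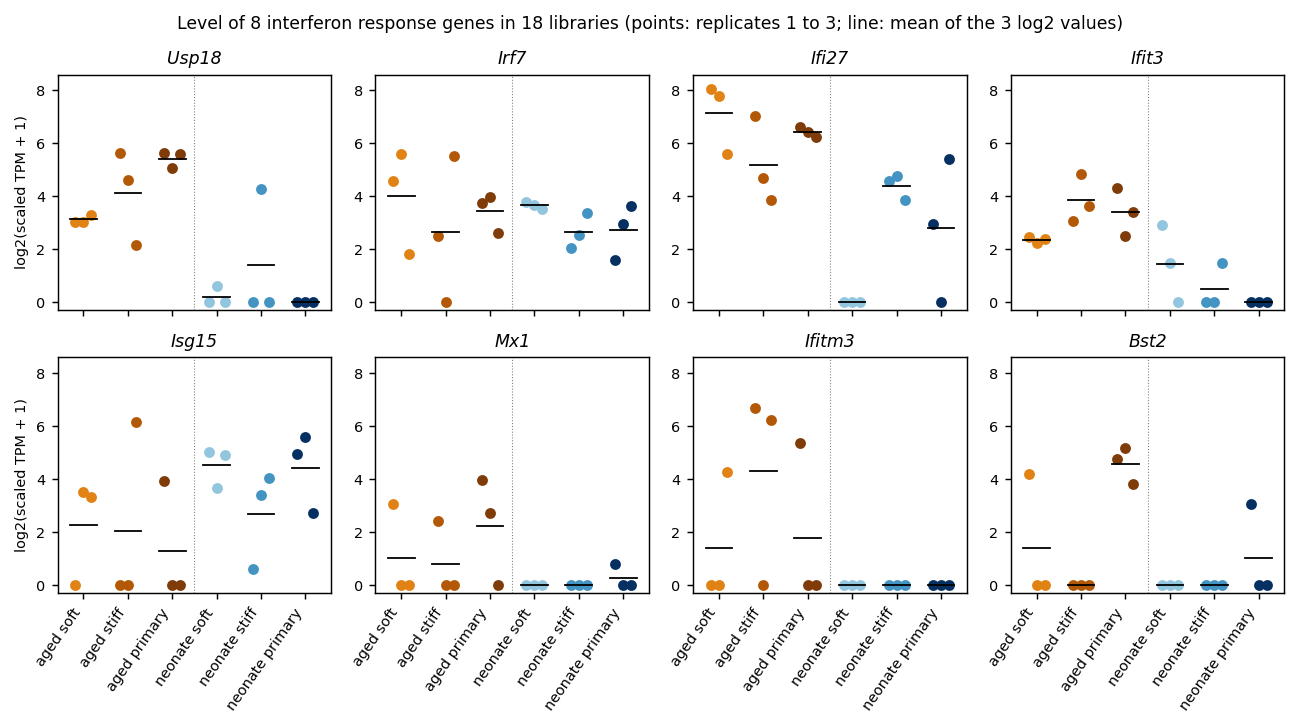
Level of each of the 8 genes in all 18 libraries as log2(scaled TPM + 1), with aged groups left of the dotted line and neonate groups right of it. Points are libraries and lines are the means of 3 log2 values. Ifi27 is between 47.4 and 261.4 scaled TPM in aged soft libraries and at 0 in neonate soft libraries, while Irf7 overlaps between the ages in every setting.

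Counted over the 8 genes, aged primary sorted cells had a positive difference for 7 and a negative one for Isg15. Of these, 2 rose (Usp18 and Ifi27) and 0 fell. In that comparison limma called 2.60% of all genes tested, 1.94% of them higher. The groups did not overlap for 4 genes, all higher in aged cells, and 11.1% of all genes tested were higher without overlap. The median difference was 2.69 for the 8 genes and 0.69 for all genes tested. On soft gel 1 of the 8 rose (Ifi27), where limma called 1.56% of all genes, 1.37% of them higher. There 2 genes were higher and 1 was lower without overlap, against 16.0% and 3.68% of all genes. The soft gel median was 1.21 for the 8 genes and 0.86 for all genes. Without the 3 aged libraries numbered 1 the soft gel medians were 0.47 and 0.45, and those in primary sorted cells 2.03 for the 8 genes and 0.00 for all genes.

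On stiff gel limma called none of the 8 genes between the ages, and 2.18% of all genes tested. At an unadjusted p under 0.05 there were 3 (Usp18, Ifit3 and Ifitm3), as were 13.6% of all genes tested, and voom also called 0. Only Ifit3 was higher without overlap, against 5.61% of all genes, and the median was 0.80 for the 8 genes and 0.49 for all genes. Without the aged libraries numbered 1 these medians were 0.24 and 0.00. With all libraries the median gene itself had a positive difference in every age comparison, a shift that rests on those 3 libraries in primary sorted cells and on stiff gel. Relative to the median of all genes in the 18 libraries Usp18 was 4.74 higher in aged primary sorted cells, Ifi27 was 2.95 higher there and 6.28 higher on soft gel, and Irf7 was 0.01, -0.52 and -0.48 in primary sorted, soft and stiff cells.

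Leaving out the 3 aged libraries numbered 1, Usp18 kept its rise in primary sorted cells (5.32, limma adjusted p = 0.0365), and Bst2 also passed (3.49, adjusted p = 0.0420). There 2.35% of all genes were then called higher. Ifi27 on soft gel was also called without them (6.70, limma adjusted p = 0.00642), beside 5.08% of all genes called higher. Aged soft libraries 2 and 3, which stayed in, had 39.1% and 30.8% of olfactory receptor genes above 0. The call of Ifi27 in primary sorted cells ended without the 3 libraries numbered 1, and in all under 8 of the 10 settings that were not a single library left out. It also ended when any of 13 single libraries was left out: aged primary 1, 2 and 3, neonate primary 1 and 2, aged soft 1 and 2, and each of the 6 neonate libraries from gels. The same difference was 2.24 without neonate primary library 2 (limma adjusted p = 0.399) and 4.96 without neonate primary library 3 (0.00862). In bulk RNA, fewer cells of a type and less RNA per cell cannot be told apart, and this applies to each of these comparisons.

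An average of the 3 age differences, giving each setting the same weight, was added after the values were seen. It uses all 9 aged and 9 neonate libraries and shares them with the comparisons above. In it 3 of the 8 genes rose, against 7.94% of all genes called higher and 10.7% called in either direction. The difference was 3.86 ± 0.58 for Ifi27 (limma adjusted p = 5.2e-05), 3.69 ± 0.66 for Usp18 (0.000409) and 2.56 ± 0.63 for Ifit3 (0.00855). The other 5 did not pass. Their values were 2.51 ± 0.90 for Ifitm3, 1.65 ± 0.67 for Bst2, 1.27 ± 0.60 for Mx1, 0.35 ± 0.65 for Irf7 and -2.01 ± 0.83 for Isg15, with limma adjusted p between 0.0693 and 0.731. Without the 3 aged libraries numbered 1 the same 3 genes were called, at 3.37 for Ifi27, 3.42 for Usp18 and 2.53 for Ifit3. Of all genes tested 7.35% were then called higher. Under quantile normalization Ifit3 was not called (1.51, limma adjusted p = 0.135).

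**Figure D4:**
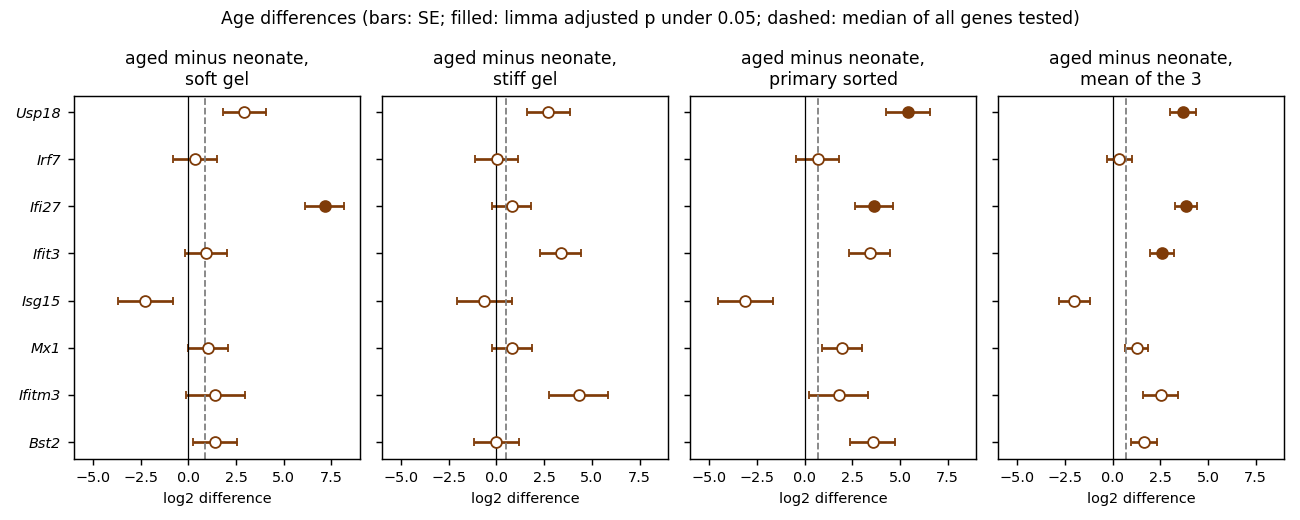
Difference between aged and neonate cells for each of the 8 genes on soft gel, on stiff gel, in primary sorted cells and as the mean of the 3, on the log2(scaled TPM + 1) scale. Bars are SE, filled points passed limma at an adjusted p under 0.05, and the dashed line is the median of all genes tested. Usp18 (5.43) and Ifi27 (3.64) are filled in primary sorted cells and Ifi27 (7.14) on soft gel, and Isg15 lies left of 0 in all panels.

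Microglia markers also differed between the ages. Of the 20 markers 17 rose and 0 fell in aged primary sorted cells, 7 rose on soft gel and 6 on stiff gel. Without the aged libraries numbered 1 the numbers that rose were 12, 7 and 3. Their summed level was 868.5 to 1400 scaled TPM in aged and 109.4 to 181.4 in neonate cells on soft gel, and 446.5 to 1100 in aged and 40.3 to 95.5 in neonate cells on stiff gel. Tmem119, a microglia marker, was at 39.3, 79.8 and 181.9 scaled TPM in aged primary sorted cells and listed at 0 in all 3 neonate primary libraries. Cx3cr1, the fractalkine receptor of microglia, was at 401.0, 389.8 and 586.5 scaled TPM in aged and at 17.0, 7.97 and 19.2 in neonate primary sorted cells. Aif1, which encodes the microglia protein Iba1, was at 59.6, 67.7 and 80.0 in aged and at 1.21, 0 and 0 in neonate primary sorted cells. Pdgfra, the receptor that marks OPCs, was at 15.9, 0 and 0 scaled TPM in aged and at 53.7, 42.6 and 74.7 in neonate primary sorted cells.

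Of other cell types, 5 T and NK cell markers were listed at 0 in all 9 neonate libraries. They summed to 49.7, 45.4 and 41.2 scaled TPM in aged primary, soft and stiff libraries 1, and to 0 to 38.3 in the other aged libraries. The sum of 8 endothelial markers was 180.4, 108.3 and 107.6 scaled TPM in aged primary, soft and stiff libraries 1. It was 17.7 to 89.85 in the other aged libraries and 0 to 27.5 in neonate libraries. Cldn5, the claudin of brain vessels, was at 28.3, 6.75 and 18.2 in aged primary sorted cells and listed at 0 in the neonate ones. The sum of 4 markers of border macrophages and monocytes was 43.5 to 239.5 scaled TPM in aged and 1.43 to 5.48 in neonate cells on soft gel, 32.9 to 84.4 in aged and 0 to 24.5 in neonate cells on stiff gel, and 0 to 39.4 in aged and 2.03 to 25.3 in neonate primary sorted cells. In aged soft libraries 1, 2 and 3 this sum was 239.5, 43.5 and 192 scaled TPM, and Ifi27 was at 261.4, 220.8 and 47.4. The sum was mostly 1 gene, Pf4, in aged soft libraries 1 and 3 and in the aged stiff libraries. Pf4 was at 193.8, 0 and 184.3 scaled TPM in aged soft and at 65.9, 30.7 and 52.4 in aged stiff libraries. The part of these cell types in the differences of the 8 genes was not tested.

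**Figure D5:**
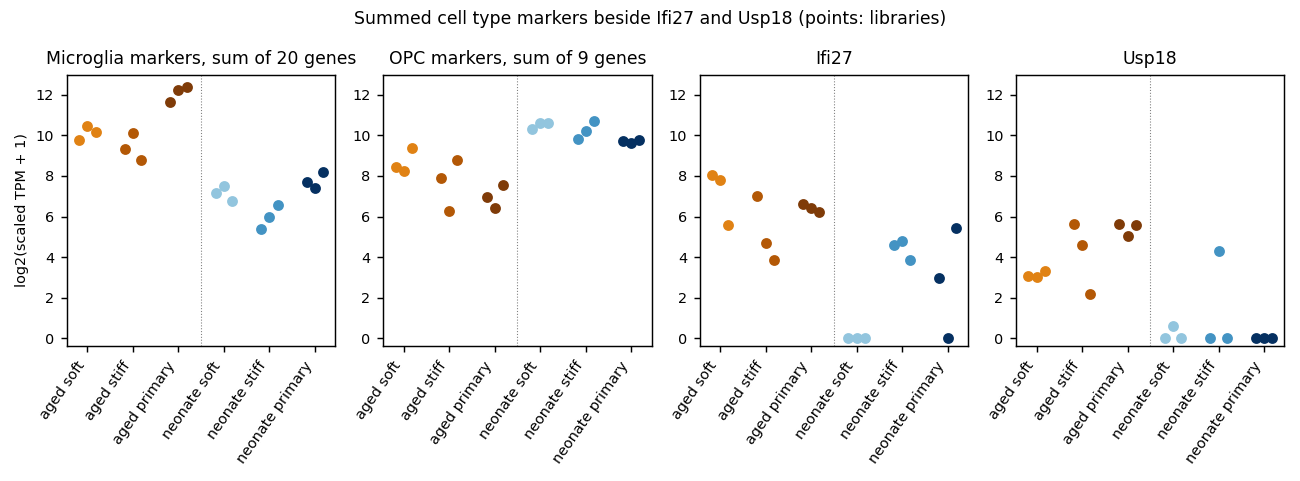
Summed level of 20 microglia markers and of 9 OPC markers beside Ifi27 and Usp18, as log2(scaled TPM + 1) per library, aged groups left of neonate groups. The microglia sum is 3162 to 5399 scaled TPM in aged and 167.1 to 293.8 in neonate primary sorted cells, and the OPC sum is 86.2 to 185.1 in aged and 799.1 to 885.5 in neonate primary sorted cells.

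None of the 8 genes was called between soft and stiff gel at either age. In aged cells limma called 0 of the 8 between soft and stiff gel, where it called 0.0792% of all genes tested. None of the 8 reached an unadjusted p under 0.05 and voom also called 0. Ifit3, with the aged values given above, was lower on soft than on stiff gel in every library, at -1.48 ± 1.09 (limma adjusted p = 0.679), and 1.69% of all genes were lower without overlap. Ifi27 was at 261.4, 220.8 and 47.4 scaled TPM on soft and 129.0, 25.2 and 13.7 on stiff gel in aged cells, a difference of 1.94 ± 1.01 with overlapping groups (limma adjusted p = 0.487).

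In neonate cells Ifi27 ran the other way. It was listed at 0 in all 3 neonate soft libraries, and was at 22.9, 26.6 and 13.6 scaled TPM in the 3 neonate stiff libraries, from 1.72, 1.38 and 0.977 read pairs. The difference was -4.41 ± 1.01, with an unadjusted p of 0.00017 and a limma adjusted p of 0.969. In that comparison limma called 0% of all genes tested, with 438 genes at an unadjusted p under 0.05 and 6 called by voom, and Ifi27 was the only 1 of the 8 under that unadjusted p. Irf7 was higher on soft than on stiff gel in every neonate library, at 1.01 ± 1.13 (limma adjusted p = 1). Without overlap 3.80% of all genes were higher and 2.53% lower on soft gel.

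The soft minus stiff difference of Ifi27 was 6.35 ± 1.43 higher in aged than in neonate cells, and limma did not call this interaction (unadjusted p = 0.000138, adjusted p = 0.522). Of all genes tested 0.00660% were called in that interaction. The other 7 genes had values from -2.89 to 1.40 there, with adjusted p from 0.984 to 1. Whether stiffness acts differently on Ifi27 in the 2 ages is therefore not shown at this depth.

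Culture on gels was set against primary sorted cells within each age. In aged cells Bst2 was listed at 0 in all 3 stiff gel libraries, against 26.0, 35.7 and 13.2 scaled TPM in primary sorted libraries. The groups did not overlap. Bst2 fell by 4.59 ± 1.17 on the log2(scaled TPM + 1) scale, with a limma adjusted p of 0.0468. It was the only 1 of the 8 called in this comparison, where limma called 1.20% of all genes, 0.911% of them lower, and 7.14% were lower without overlap. The call held without the 3 libraries numbered 1 (-4.51, limma adjusted p = 0.0267), where 258 of the 15144 genes were called lower. It ended by voom and under 3 other settings. Leaving out 1 library ended it in 14 of 18 cases, namely each library other than aged soft 1, 2 and 3 and neonate primary 1.

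Microglia markers were also lower in that comparison, where 5 of the 8 genes had a negative difference and 3 a positive one. Of 20, 7 fell and 0 rose on stiff gel against primary sorted aged cells, and their sum was 446.5 to 1100 scaled TPM on stiff gel and 3162 to 5399 in primary sorted cells. The count was also 7 without the libraries numbered 1. Their part in the change of Bst2 was not tested.

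On soft gel limma called 0 of the 8 genes against primary sorted aged cells, and 0.502% of all genes. Bst2 had an unadjusted p of 0.0109 (-3.20 ± 1.17, limma adjusted p = 0.341), and voom called 0. Without the 3 aged libraries numbered 1 Bst2 was called there at -4.51 (limma adjusted p = 0.0128). In that setting limma called 608 of the 15144 genes higher and 164 lower. Usp18 was lower in every soft gel library than in every primary library, at 7.29, 7.19 and 8.92 against 48.8, 32.4 and 47.1 scaled TPM. That difference was -2.30 ± 1.14 and did not pass (limma adjusted p = 0.544). Ifit3 was also lower without overlap, and 5.51% of all genes were. Of the 20 microglia markers 3 fell and 0 rose here. Their sum was 868.5 to 1400 scaled TPM on soft gel and 3162 to 5399 in primary sorted cells. Of the 8 genes, 5 had a negative difference and 3 a positive one, namely Isg15 (0.97), Ifi27 (0.70) and Irf7 (0.58). The part of microglia in these differences was not tested.

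In neonate cells limma called 0 of the 8 genes on soft gel and 0 on stiff gel against primary sorted cells, where it called 0.0396% and 0.0660% of all genes. Voom also called 0 in both. Ifi27 on soft gel was the only 1 with an unadjusted p under 0.05 (-2.80 ± 1.01, limma adjusted p = 1), as 3.65% of all genes had there. The age difference on gels, averaged over soft and stiff, minus that in primary sorted cells was not called for any of the 8 by limma or voom, where limma called 0.112% of all genes and none of the 8 had an unadjusted p under 0.05. The values furthest from 0 in it were -2.87 ± 1.43 for Bst2 and -2.61 ± 1.39 for Usp18 (limma adjusted p = 0.904 and 0.932).

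The wider interferon pathway was described by a list of 122 other genes, of which 101 were in the files and 91 passed the filter. Some of these, among them Slfn2, Lgals9, Ifnlr1, Ikbke and Parp9, were listed at 0 in every neonate library. They passed the filter only through aged libraries, so counts and medians over the 91 genes are descriptions. Interferon genes themselves were scarcely covered. Of 10 listed ligands 6 were in the files and 1 was tested. That gene was Ifnk, which is known mainly from skin, and it was above 0 in 2 of 9 aged and 5 of 9 neonate libraries, at up to 60.4 scaled TPM in aged stiff library 1 and 40.8 in neonate primary library 2. Ifnb1, chosen for mention after its values were seen, was above 0 in 2 libraries, aged soft library 1 at 30.0 and aged primary library 1 at 10.2 scaled TPM. Both belong to the 3 aged libraries that stand apart.

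In primary sorted cells 4 of the 91 genes rose with age and 0 fell, beside 1.94% of all genes called higher. They were the DNA sensor Tlr9 (4.81 ± 1.11), the RNA helicase Dhx58 (4.39 ± 1.09), the light chain B2m of MHC class I (4.04 ± 0.65) and the transcription factor Irf5 (3.54 ± 0.98), with limma adjusted p from 0.00057 to 0.0478. Tlr9 was at 46.1, 65.7 and 54.9 scaled TPM in aged and at 1.26, 0 and 2.50 in neonate libraries. B2m was at 185.8, 379.5 and 394.0 in aged and at 29.9, 9.72 and 17.9 in neonate libraries. The median difference over the 91 genes was 1.88, against 0.69 for all genes tested. By voom 19 of the 91 were called, and 977 of all genes against 394 by limma. Without the aged libraries numbered 1, 5 of the 91 rose (B2m, Dhx58, Tlr9, Il10rb and Tlr3), or 5.49% beside 2.35% of all genes, and Irf5 was not called.

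On soft gel 4 of the 91 rose with age and 0 fell, beside 1.37% of all genes called higher. These were the growth regulator Slfn2 (5.13 ± 1.23), the lectin Lgals9 (4.38 ± 0.84), Dhx58 (4.13 ± 1.09) and B2m (3.79 ± 0.65), with limma adjusted p from 0.00151 to 0.0499. Slfn2 was at 27.0, 72.2 and 20.1 scaled TPM in aged soft libraries and listed at 0 in the neonate ones. Both Slfn2 and Lgals9 passed the filter only through aged libraries. Without the 3 libraries numbered 1, 11 of the 91 rose, or 12.1%, and the share of all genes that rose was then 5.08%. On stiff gel limma called 0 of the 91, with 8 at an unadjusted p under 0.05 (8.79%, beside 13.6% of all genes), and voom called 1. Without the libraries numbered 1 limma called 1 of the 91 higher (1.1%, beside 1.18% of all genes).

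Between soft and stiff gel in aged cells Lgals9 rose (4.38 ± 0.84, limma adjusted p = 0.0336), and no other of the 91 was called, beside 0.0792% of all genes. It was at 23.8, 28.3 and 11.5 scaled TPM on soft gel and listed at 0 on stiff gel, and it also rose on soft gel against primary sorted aged cells (3.97 ± 0.84, limma adjusted p = 0.0243). Outside the aged soft group Lgals9 was above 0 only in aged primary library 1, at 1.34 scaled TPM. It thus passed the filter only through the group where it was high, and its calls are descriptions. Without the 3 libraries numbered 1, 8 of the 91 rose between soft and stiff gel (8.79%, beside 4.27% of all genes). There 1 of the 91 fell, beside 48 of all 15144 genes. Between soft gel and primary sorted cells 5 of the 91 rose (5.49%, beside 4.01% of all genes). There 4 of the 91 fell, beside 164 of all 15144 genes. On stiff gel against primary sorted aged cells Tlr9 fell by 4.98 ± 1.11 (limma adjusted p = 0.0198) and no other of the 91 was called, beside 0.911% of all genes called lower. Without the libraries numbered 1, 2 of the 91 fell (Tlr9 and Ifi47), beside 258 of all 15144 genes. None was called in neonate cells between gels, or on soft or stiff gel against primary sorted cells, and voom called 0 each time. In that order 1, 5 and 4 of the 91 had an unadjusted p under 0.05. These are 1.1%, 5.49% and 4.4%, beside 2.89%, 3.65% and 4.78% of all genes.

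Averaged over the 3 settings, 23 of the 91 genes rose with age and 0 fell, which is 25.3% beside 7.94% of all genes tested. By role these were 3 of 5 receptors tested, 4 of 15 signalling proteins, 3 of 9 sensors and 13 of 61 stimulated genes. The 6 with the highest differences were Slfn2 (4.20 ± 0.71), the GTPase Ifi47 (3.42 ± 0.74), B2m (3.15 ± 0.37), the transcription factor Irf9 (3.09 ± 0.86), the interferon gamma receptor chain Ifngr1 (3.02 ± 0.60) and Dhx58 (2.86 ± 0.63), with limma adjusted p from 1.44e-06 to 0.0207. Without the 3 libraries numbered 1, 19 of the 91 rose, or 20.9%, beside 7.35% of all genes. Genes such as Slfn2, Ifnlr1, Ikbke and Parp9, all among the 23, passed the filter only through aged libraries. Both shares are therefore descriptions and no separate support for a rise with age. Microglia are known to express many interferon pathway genes, and 17 of the 20 microglia markers rose in the same average, with a median of 3.73 (16 without the libraries numbered 1). Their part in the change of the list was not tested.

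The 8 genes did not vary as 1 block. The correlation of each gene with the mean of the other 7 over the 18 libraries was 0.67 for Mx1, 0.62 for Usp18, 0.57 for Ifit3, 0.48 for Ifitm3, 0.47 for Ifi27, 0.41 for Bst2, 0.19 for Irf7 and -0.44 for Isg15 (Pearson's r of log2 levels). The mean log2 level of the 8 was 1.77 to 4.80 in aged libraries and 0.91 to 1.88 in neonate libraries. Aged stiff library 2, with 5.47 read pairs on the 8 genes together, was the only aged library inside the neonate range.

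Of 8549 other genes with a mean of at least 5 scaled TPM, the 8 whose log2 levels were most like that mean over the 18 libraries were Plcg2 and Aif1 (Pearson's r = 0.86 each), Mical2, Slfn2, Slc28a3 and Ptafr (0.85 each), and Pik3cd and B3gnt2 (0.84 each). These values are descriptions. The 18 points share their age groups, the microglia marker level and the depth of each library. Plcg2, a phospholipase of immune receptor signalling, was at 12.4 to 13.3 scaled TPM in aged soft, 12.7 to 23.2 in aged stiff and 28.5 to 41.1 in aged primary libraries, and at 0 to 1.37 in neonate libraries. Its aged and neonate libraries did not overlap, but it was chosen by likeness to a mean that was itself higher in most aged libraries. Of the genes chosen in the same way, Aif1 and Slfn2 were listed at 0 in aged stiff library 2 and so did overlap.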

How the data were processed

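Total RNA of 18 rat libraries was sequenced in 6 groups of 3, and the files hold 18902 annotated transcripts each. Per the file headers the authors quantified them with StringTie 1.3.2d against an rn6 annotation, without new transcripts and without a strand option. Each deposited record gives TPM, FPKM and mean coverage. The submitters' processing notes also name Trimmomatic, HISAT2 and Bowtie, with no role or version. Here TPM was summed per gene and divided by median-of-ratios factors (0.454 to 1.94) from 1644 genes above 0 in every library. Read pairs were estimated as coverage times exonic length over 300 bases. Genes with TPM of 1 or more in 3 or more libraries (15144) entered limma 3.58.1 under R 4.3.3, on log2(scaled TPM + 1), as 6 group means with a variance trend. P-values were adjusted by Benjamini-Hochberg over all 15144 genes, with a threshold of 0.05, and the code was tested on simulated data. Read counts were not used here, and voom on the estimated read pairs was an alternative only. Other alternatives were an added 0.1, no filter, a TPM of 5, no scaling, quantile normalization, the compared groups alone, a replicate block, and libraries left out. Centred factors and the mean of the 3 age differences were added after seeing the data. The 8 genes, the 122 other interferon genes and the markers were chosen with earlier results of these data known. Beside the 8, genes were named by rule: called interferon genes, up to 6 a direction by size, 6 markers and the 8 genes most like the mean. Response element matches came from RefSeq promoters of GRCr8, and rn6 coordinates are those of the files.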

Additional observations from a re-analysis of the deposited data

How the results depend on the processing

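Of the 8 genes, 2 were called between the ages in primary sorted cells, and 1 (Usp18) under an added 0.1, no filter, no scaling, quantile normalization, the compared groups alone or centred factors, with 1 to 2 when libraries were left out. By voom the 2 were Usp18 and Ifit3, and Ifi27 was not called (adjusted p = 0.0534). Usp18 passed under all 28 settings (adjusted p 9.03e-06 to 0.0444), and so did Ifi27 on soft gel (1.15e-05 to 0.0354). Between the ages on stiff gel the count was 0 to 1 with libraries left out, where Ifitm3 passed without aged stiff library 2 (6.48, adjusted p = 0.0223). For aged soft gel against primary sorted cells it was 0 to 1, through Bst2. For aged stiff gel against primary sorted cells it was 0 under an added 0.1, no filter, voom or the compared groups alone, and 0 to 1 with libraries left out. For the mean of the 3 age differences it was 6 by voom, which added Mx1 (1.26), Ifitm3 (1.43) and Bst2 (1.12), where voom called 21.4% of all genes and limma 10.7%. Isg15 passed there as lower in aged cells under quantile normalization (-2.52, adjusted p = 0.0441) and without aged stiff library 3 (-2.69, adjusted p = 0.0159), where the cause was not tested. No called difference changed sign. The titles link libraries only by a replicate number, and the numbers in the file headers differ from the titles. In no comparison did every same-numbered pair correlate above 0.1 in deviation from the group means. Aged pairs numbered 1 did, at 0.12 (soft and stiff), 0.23 (soft and primary) and 0.21 (stiff and primary). So did aged stiff and primary libraries 3, at 0.15. The other pairs lay between -0.05 and 0.08. A fit with the replicate block kept 2 calls in primary sorted cells, 1 on soft gel, 1 for Bst2 and 0 elsewhere, and gave 4 in the mean of the age differences, adding Ifitm3 (2.51, adjusted p = 0.0485). Depth limits each value, since no gene of the 8 had over 15.6 read pairs in a library and 1 pair on Isg15 is worth up to 28.4 TPM.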
